A study of Mus musculus with 7 samples.

Results

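The miR-34 family of mouse is made from 3 hairpins, miR-34a, miR-34b and miR-34c, and each hairpin can give a mature miRNA from its 5p and its 3p arm. These 6 arms, out of 1966 mature miRNAs listed, are described here in 7 small RNA libraries from mouse hepatocytes. The arms were taken by name, and the family was chosen by its levels in the 2 genotypes, which were already known, so the differences between the genotypes below describe these libraries and none of them is offered as a test.

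miRNAs are short RNAs that pair with messenger RNAs, mainly through the seed at bases 2 to 8, and lower their output. The miR-34 genes are classical transcriptional targets of the tumour suppressor p53, which is activated by DNA damage and other stress. miR-34a is made in most tissues and slows the cell cycle and favours senescence and cell death, through targets that include Sirt1, Bcl2 and cyclin-dependent kinases. miR-34b and miR-34c come from a shared transcript and are best known from tissues with motile cilia and from testis, where the related miR-449 miRNAs are abundant too.

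Hepatocytes labelled ALAS12-KO (4 libraries) were set against WT hepatocytes (3 libraries), in a study of ALAS1 and small RNA silencing. ALAS1, a 5-aminolevulinate synthase, catalyses the step that opens heme synthesis. Both genotypes carry the treatment label TMX, which the labels do not spell out. The sources used here give no age of the mice and no driver or allele of the deletion. Hepatocytes were enriched from collagenase-digested liver by slow spins.

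The total of miRNA reads was 10093244 to 17091539 in ALAS12-KO and 7719180 to 21962191 in WT. The hepatocyte miRNA miR-122-5p held 534763 to 615065 counts per 1000000 miRNA reads (CPM) in ALAS12-KO and 570543 to 593803 CPM in WT. miRNA counts hold no ALAS messenger RNA, and the deletion itself was not checked. ALAS12-KO replicate 1 stood apart. Its 5 leukocyte markers summed to 2238 CPM, against 4862 to 7212 CPM in the other ALAS12-KO libraries, and its 2 endothelial markers to 10959 CPM, against 25490 to 36485 CPM there. Results that could rest on this library are given with and without it.

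The sequences show what the arms share. They are RefSeq sequences on GRCm38.p6, written 5′ to 3′ with the seed in capitals, and 5 of the 6 arms were matched by name. The arm not matched is mmu-miR-34c-5p.
mmu-miR-34a-5p: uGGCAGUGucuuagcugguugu
mmu-miR-34b-5p: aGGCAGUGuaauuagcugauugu
mmu-miR-449a-5p: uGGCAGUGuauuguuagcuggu
mmu-miR-449c-5p: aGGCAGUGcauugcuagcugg
mmu-miR-34a-3p: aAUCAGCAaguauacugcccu
mmu-miR-34b-3p: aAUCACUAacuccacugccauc
mmu-miR-34c-3p: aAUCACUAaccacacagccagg

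The first 4 share 1 seed, and they were the only mature miRNAs with it among the 1679 names in the sequence table. That table lacks miR-34c-5p, so the seed and the distances of this arm were not compared, and it is not shown to fall outside this group. miR-34b-3p and miR-34c-3p share another seed, which no other name in that table had, and the seed of miR-34a-3p was its own. miR-34a-5p and miR-34b-5p were 4 edits apart, the closest sequence in the table for each, so a read of miR-34a-5p with 1 sequencing error is not the sequence of miR-34b-5p. No source used here says how the counting treated reads with mismatches.

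The hairpin of miR-34a is shown with its arms in capitals, the 5p arm first, because its 2 arms carry the main difference described below.
Mir34a: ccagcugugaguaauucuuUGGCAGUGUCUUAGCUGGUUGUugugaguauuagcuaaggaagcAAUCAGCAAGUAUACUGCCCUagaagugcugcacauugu

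Mir34a lies at chr4:150068454-150068555 on the plus strand of GRCm38. In GENCODE M21 the last 17 bases of the hairpin, beyond both arms, overlap the exon of Gm37795, an unverified transcript on the same strand, and no other gene overlaps it. Mir34b lies at chr9:51103562-51103645 and Mir34c at chr9:51103034-51103110, both on the minus strand and 451 bases apart. Both sit in an intron of the protein-coding gene Btg4, which is transcribed from the opposite strand.

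miR-34a-5p was by far the most abundant arm, and it was higher in ALAS12-KO. It had 2321, 2276, 2345 and 2133 CPM in ALAS12-KO replicates 1 to 4, from 22974 to 40076 reads. In WT replicates 1 to 3 it had 1444, 1206 and 981 CPM, from 7574 to 26492 reads. Every ALAS12-KO library was above every WT library.

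The mean of miR-34a-5p was 2269 ± 95.1 CPM (SD, n = 4) in ALAS12-KO and 1211 ± 232 CPM (SD, n = 3) in WT, a ratio of means of 1.87. The 4 ALAS12-KO libraries lay close together, with an SD of 4.19% of their mean, against 19.1% in WT. That closeness depends on the scaling. With TMM factors, which correct library sizes for a few dominant miRNAs, the ALAS12-KO libraries ran from 2077 to 2879 CPM and the WT libraries from 870 to 1332 CPM, still without overlap.

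Among all miRNAs of a library, miR-34a-5p ranked from 28th to 34th by level in ALAS12-KO and from 39th to 48th in WT. The 6 arms together held 0.227% ± 0.00956 of all miRNA reads in ALAS12-KO (SD, n = 4) and 0.121% ± 0.0232 in WT (SD, n = 3). miR-34a-5p made up 99.7% to 99.9% of the family's reads in ALAS12-KO and 99.5% to 99.7% in WT, so the family total follows this arm.

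**Figure D1:**
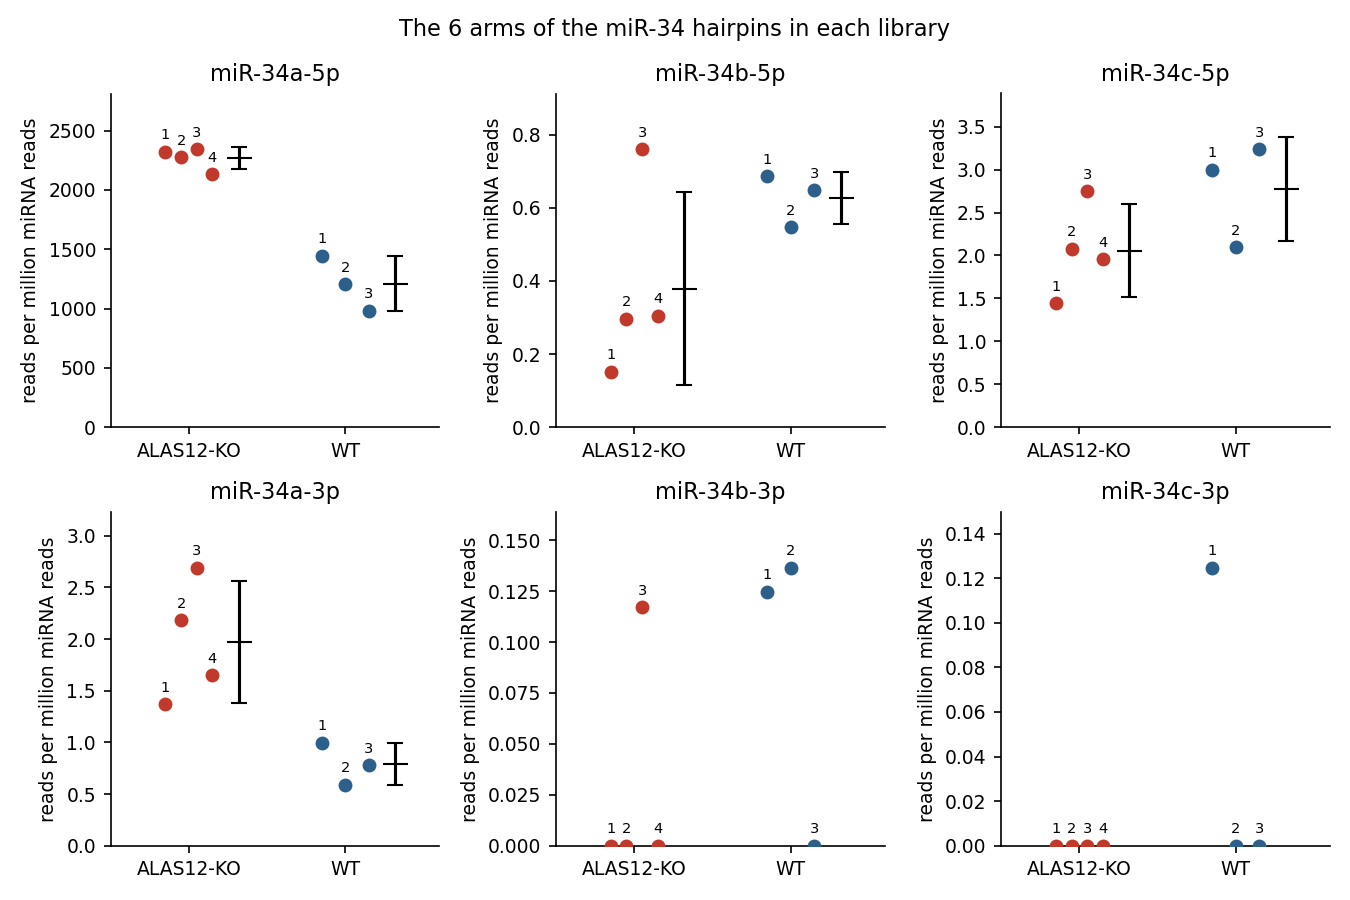
CPM of each arm, one panel an arm, with a point for each library (numbered by replicate) of ALAS12-KO (red, n = 4) and WT (blue, n = 3), and the mean ± SD in black where counts were more than a few reads. Both miR-34a arms are above WT in all 4 ALAS12-KO libraries, while the miR-34b and miR-34c arms overlap or are at a few reads.

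miR-34a-3p, the partner strand of miR-34a-5p that is mostly discarded after processing, was rare and differed in the same direction. It had 1.37, 2.18, 2.69 and 1.65 CPM in ALAS12-KO replicates 1 to 4, from 18 to 46 reads. In WT replicates 1 to 3 it had 0.998, 0.592 and 0.777 CPM, from 6 to 16 reads. The groups did not overlap, and the mean was 1.97 ± 0.587 CPM (SD, n = 4) in ALAS12-KO and 0.789 ± 0.204 CPM (SD, n = 3) in WT.

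Both arms are cut from 1 precursor, so they are not independent measures. The balance between them overlapped between the genotypes. There were 0.589, 0.958, 1.15 and 0.773 miR-34a-3p reads for every 1000 miR-34a-5p reads in ALAS12-KO replicates 1 to 4, and 0.691, 0.491 and 0.792 in WT replicates 1 to 3. On the log2 scale the ratio of 3p to 5p averaged −10.19 ± 0.41 (SD, n = 4) in ALAS12-KO and −10.53 ± 0.38 (SD, n = 3) in WT, with 0.5 reads added to each arm.

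The hairpin is strongly one-sided. Over the 7 libraries together it gave 185780 reads of the 5p arm and 148 of the 3p arm. Of the 146 hairpins with both arms listed and at least 1000 reads, it had the 17th lowest share of the minor arm, at 0.797 per 1000 major-arm reads against a median of 19.1.

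miR-34c-5p, the leading arm of the chromosome 9 pair, did not follow miR-34a. It had 1.44, 2.08, 2.75 and 1.95 CPM in ALAS12-KO replicates 1 to 4, from 19 to 47 reads. In WT replicates 1 to 3 it had 3.0, 2.09 and 3.24 CPM, from 25 to 48 reads. The means were 2.06 ± 0.538 CPM (SD, n = 4) in ALAS12-KO and 2.78 ± 0.603 CPM (SD, n = 3) in WT, and the libraries overlapped.

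miR-34b-5p, from the neighbouring hairpin, was scarcer. It had 0.152, 0.297, 0.761 and 0.305 CPM in ALAS12-KO replicates 1 to 4, which is 2, 3, 13 and 5 reads. In WT replicates 1 to 3 it had 0.686, 0.546 and 0.648 CPM, which is 11, 12 and 5 reads. ALAS12-KO replicate 3 was the highest of the 7 libraries and the other 3 ALAS12-KO libraries were the lowest 3, so the groups overlapped through 1 library.

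The 3p arms of this pair were at the limit of counting. miR-34b-3p had 2 reads in ALAS12-KO, all in replicate 3, and 5 reads in WT, 2 in replicate 1 and 3 in replicate 2. miR-34c-3p had 0 reads in ALAS12-KO and 2 reads in WT, both in replicate 1. A count of 0 allows up to 3 reads, which is 0.176 to 0.297 CPM in the ALAS12-KO libraries and 0.137 to 0.389 CPM in the WT libraries, so no difference was detectable for either arm at this depth. Reads carry no molecular identifiers here, and this limit covers counting error only.

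Below miR-34a-5p the means kept 1 order in both genotypes, with different gaps. In ALAS12-KO, miR-34a-3p and miR-34c-5p stood at 1.97 and 2.06 CPM, closer than their spread. In WT, miR-34c-5p at 2.78 CPM was above miR-34a-3p at 0.789 CPM in every library. miR-34b-5p came next. At 0.379 CPM it was below both in every ALAS12-KO library. In WT, at 0.627 CPM, it was below miR-34a-3p in every library too, but the means did not differ beyond their spread. The counts there were 5 to 12 reads of miR-34b-5p and 6 to 16 of miR-34a-3p. Mature miRNAs have nearly 1 length, but ligation favours some ends over others, so levels of different arms compare only roughly.

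Counted together, miR-34b and miR-34c took a smaller part of the family in ALAS12-KO. They gave 6.86, 10.4, 15.4 and 10.6 of every 10000 family reads in ALAS12-KO replicates 1 to 4, and 27.1, 23.0 and 39.4 in WT replicates 1 to 3. The groups did not overlap in this share, which no library scaling can move. Nearly all family reads are miR-34a-5p, so the share falls whenever miR-34a-5p rises, and it is no separate result. In CPM the reads of miR-34b and miR-34c overlapped, at 2.46 ± 0.849 (SD, n = 4) in ALAS12-KO and 3.53 ± 0.654 (SD, n = 3) in WT.

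**Figure D2:**
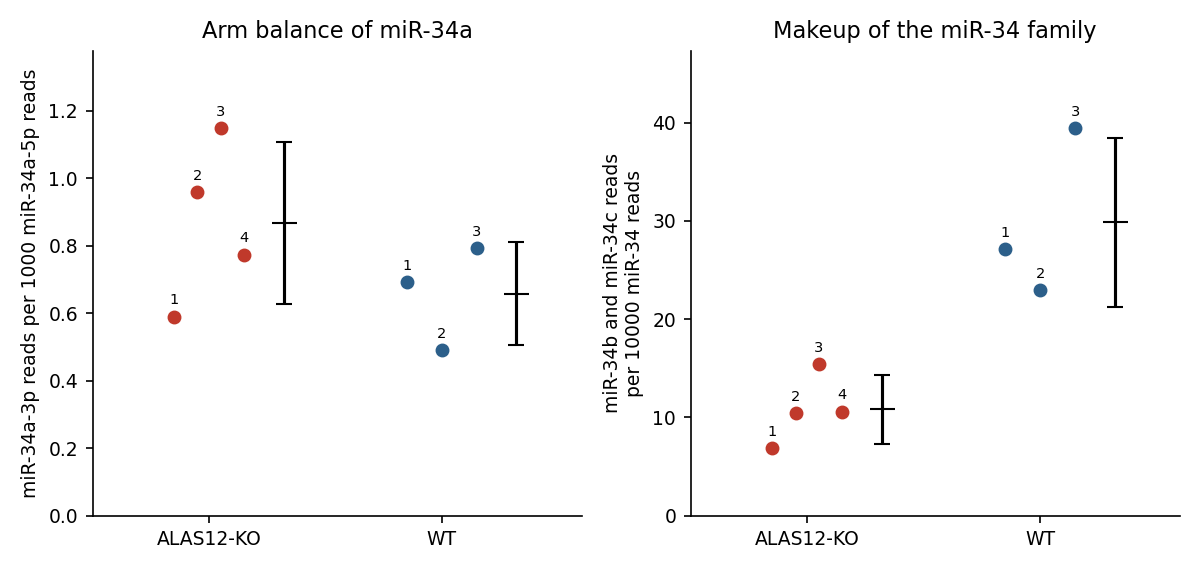
Left, miR-34a-3p reads for every 1000 miR-34a-5p reads. Right, reads of the 4 miR-34b and miR-34c arms for every 10000 reads of the family. Points are libraries numbered by replicate, bars the mean ± SD of ALAS12-KO (n = 4) and WT (n = 3). The arm balance overlaps between the genotypes, while the share of miR-34b and miR-34c is at most 15.4 in ALAS12-KO and at least 23.0 in WT.

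A fit of all miRNAs gives the errors and the background. edgeR's quasi-likelihood test with TMM factors tested the 450 miRNAs that passed a filter on low counts, 4 of the 6 arms among them. miR-34b-3p and miR-34c-3p did not pass. The log2 fold change of ALAS12-KO over WT was 1.10 ± 0.19 (SE) for miR-34a-5p, 1.48 ± 0.33 for miR-34a-3p, −0.53 ± 0.45 for miR-34b-5p and −0.25 ± 0.26 for miR-34c-5p. From the highest, these were places 7, 2, 375 and 316 of 450.

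With Benjamini-Hochberg adjustment over all miRNAs, edgeR called 0 of the 4 tested arms and 0.00% of the 450 miRNAs at a threshold of 0.05. At an unadjusted p under 0.05 it had 2 arms, both of miR-34a and both higher, where 10.2% of all tested miRNAs were higher and 8.44% lower. The CPM of the groups did not overlap for the same 2 arms, above WT, and for 5.33% of all tested miRNAs above and 15.3% below WT. Since these arms were picked for this difference, the counts carry no weight of their own. limma-voom called 0 of the 4 arms, with 2 at an unadjusted p under 0.05, and DESeq2 called 2, both of miR-34a, among 21 miRNAs.

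Scaling shifted all miRNAs together. The median log2 fold change of the 450 was 0.06 with TMM and −0.12 with library totals. The share of higher miRNAs among those at an unadjusted p under 0.05 was 54.8% with TMM, 27.3% on library totals and 32.9% on upper-quartile factors. With TMM on another set, the 222 miRNAs that passed a filter at a mean of 10 CPM, this share was 38.8%. Relative to that median, miR-34a-5p stood at 1.04 with TMM and 1.02 with library totals, and miR-34c-5p at −0.31 and −0.29. Not set against the median, miR-34c-5p was at −0.41 on library totals.

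**Figure D3:**
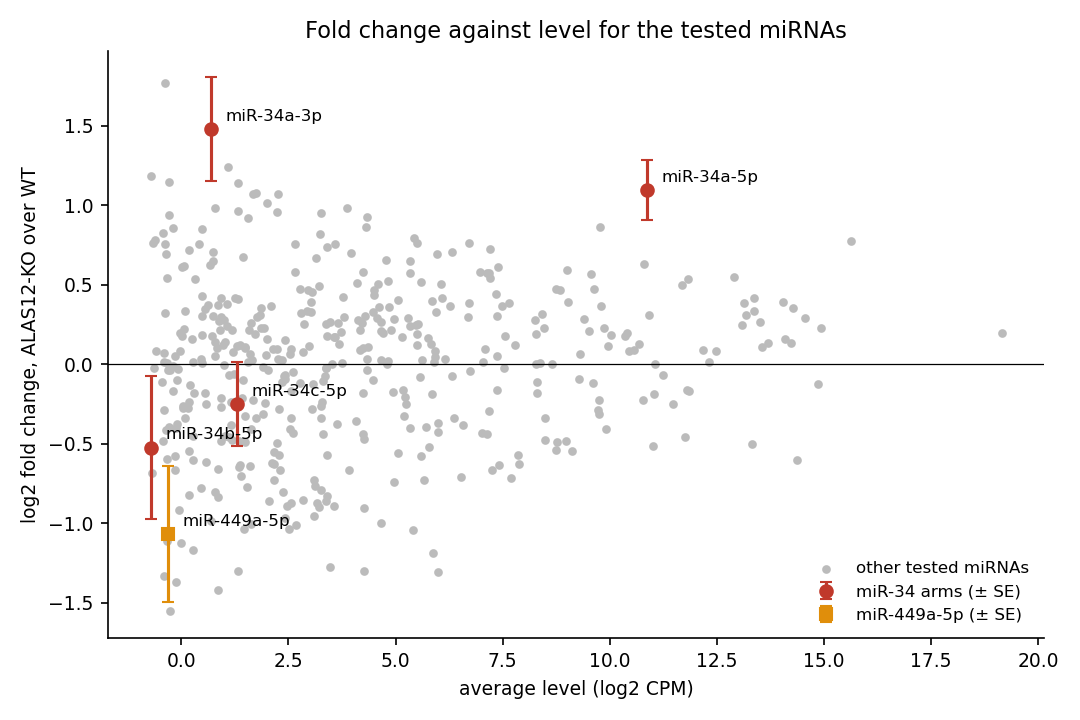
Log2 fold change of ALAS12-KO over WT against the average level (log2 CPM) for the 450 tested miRNAs (grey), with the 4 tested miR-34 arms (red) and miR-449a-5p (orange) and their SE. The miR-34a arms stand near the upper edge at a high and a low level, and miR-34b-5p, miR-34c-5p and miR-449a-5p are below 0.

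Without ALAS12-KO replicate 1, the log2 fold change was 0.98 ± 0.17 for miR-34a-5p and 1.54 ± 0.34 for miR-34a-3p, and both stayed without overlap. It was −0.20 ± 0.28 for miR-34c-5p. For miR-34b-5p it was −0.34 ± 0.43, over 1.5 times smaller than with this library, whose miR-34b-5p CPM was the lowest of all.

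**Figure D4:**
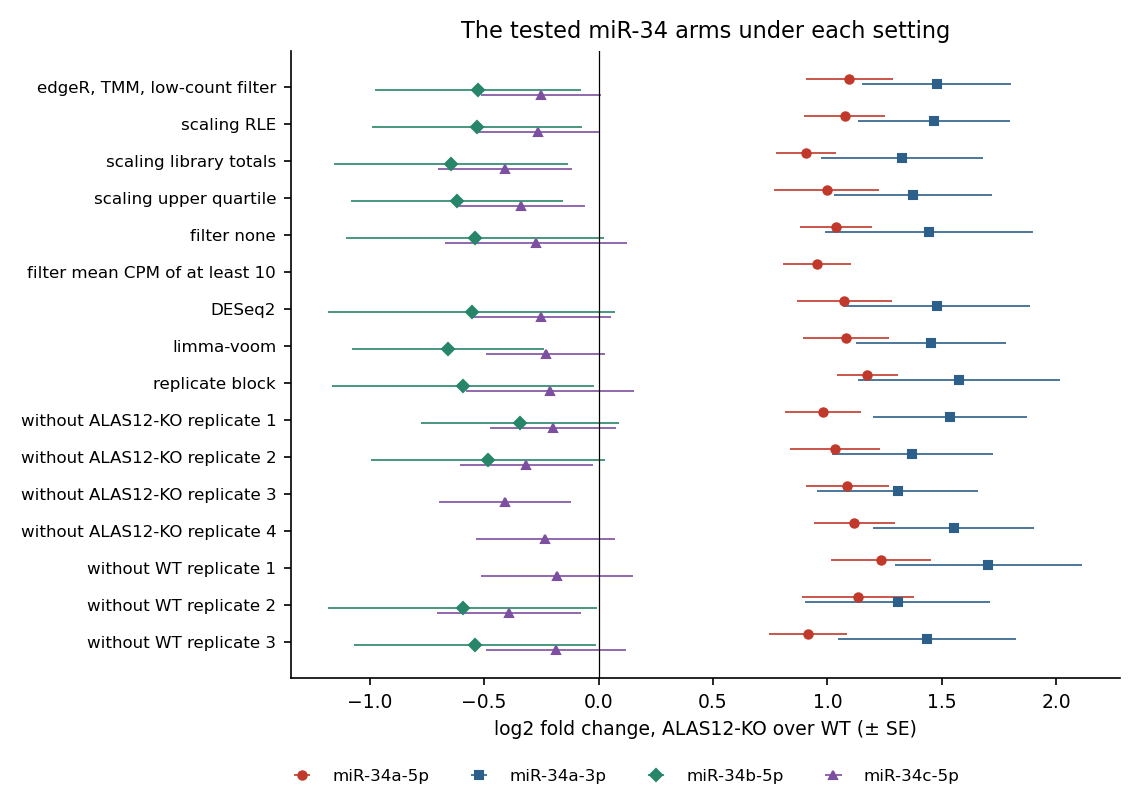
Log2 fold change of ALAS12-KO over WT ± SE for the 4 tested arms, one line of points for each scaling, filter, tool or left-out library. miR-34a-5p runs from 0.91 to 1.23 and miR-34c-5p from −0.41 to −0.18; an arm with no point did not pass the filter of that setting.

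The miR-449 miRNAs are known from multiciliated epithelium. Of these, miR-449a-5p and miR-449c-5p were matched with the seed of miR-34a-5p, from another locus on chromosome 13. miR-449a-5p had 0.152 to 0.702 CPM in ALAS12-KO, from 2 to 12 reads, and 0.820 to 1.55 CPM in WT, from 12 to 18 reads. Its groups did not overlap, where 15.3% of all tested miRNAs were below WT without overlap. The log2 fold change of miR-449a-5p was −1.07 ± 0.43 (SE). Without ALAS12-KO replicate 1 it was −0.87 ± 0.40. miR-449c-5p had 5 reads in ALAS12-KO and 2 in WT, miR-449a-3p had 2 in ALAS12-KO and 1 in WT, and miR-449b and miR-449c-3p had 0 in all 7 libraries.

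By reads, miR-34a-5p was 99.9% to 100.0% of the 4 matched miRNAs with this seed in ALAS12-KO and 99.8% to 99.9% in WT. The pool of these 4 therefore followed miR-34a-5p alone, at 2134 to 2346 CPM in ALAS12-KO and 983 to 1446 CPM in WT. It leaves out miR-34c-5p, whose sequence was not matched and which had at most 3.24 CPM in a library.

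Other miRNAs reported to respond to p53 were split in direction. edgeR called 0 of the 15 tested of the 16 listed, of which 8 had a positive and 7 a negative log2 fold change, and on library totals 7 were positive and 8 negative. At an unadjusted p under 0.05 there were 2 higher and 1 lower, where all tested miRNAs had 10.2% higher and 8.44% lower. Their median log2 fold change was 0.06, against 0.06 over all 450 miRNAs, and −0.02 against 0.03 without ALAS12-KO replicate 1. The abundant miR-192-5p and miR-194-5p, a pair of hepatocyte miRNAs, had log2 fold changes of 0.39 ± 0.18 and 0.34 ± 0.17 (SE) with TMM, but 0.19 and 0.13 on library totals. The level of miR-192-5p was 17467 ± 1502 CPM (SD, n = 4) in ALAS12-KO and 15349 ± 527 CPM (SD, n = 3) in WT, in CPM on library totals. miR-22-3p, made from a noncoding host RNA in many tissues, had 0.53 ± 0.14, and miR-143-3p of smooth muscle and other mesenchymal cells −0.46 ± 0.30.

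Of 6 miRNAs reported to target p53 or its pathway, 5 were tested and edgeR called 0. At an unadjusted p under 0.05 there were 2 higher and 0 lower, beside the 10.2% and 8.44% of all tested miRNAs, and the median log2 fold change was 0.31, against 0.06 over all 450. Log2 fold changes were 0.31 ± 0.12 (SE) for miR-30d-5p, 0.21 ± 0.15 for miR-25-3p, 0.47 ± 0.27 for miR-92a-3p and −0.23 ± 0.14 for miR-125b-5p with TMM. On library totals they were 0.13 for miR-30d-5p, 0.01 for miR-25-3p, 0.35 for miR-92a-3p and −0.42 for miR-125b-5p. The groups of miR-125b-5p did not overlap in CPM, at 1451 to 1693 in ALAS12-KO and 1875 to 2218 in WT, where 15.3% of all tested miRNAs were below WT without overlap.

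Marker lists of 7 cell types were set beside these values, and edgeR called 0 of their tested members. The 5 cholangiocyte markers, from the cells that line bile ducts, summed to 54.4 to 105 CPM in ALAS12-KO (from 75.9 without replicate 1) and 139 to 243 CPM in WT, without overlap. Of these, 3 were at an unadjusted p under 0.05 and lower, where 8.44% of all tested miRNAs were. They were miR-200a-3p (−1.31 ± 0.27, SE), miR-200b-3p (−1.30 ± 0.29) and miR-429-3p (−1.27 ± 0.27). The same 3 were below WT without overlap, where 15.3% of all tested miRNAs were. Whether these 3 come from a shared transcript was not checked, so they may not be independent measures. The other 2 overlapped, with log2 fold changes of −0.10 ± 0.18 for miR-141-3p and −0.07 ± 0.28 for miR-200c-3p. The multiciliated markers, all of them miR-449 miRNAs, summed to 0.152 to 0.878 CPM in ALAS12-KO and 0.820 to 1.55 CPM in WT, with 1 of 3 at 0 in all libraries.

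The other sums overlapped between the genotypes. The leukocyte markers ran from 2238 to 7212 CPM in ALAS12-KO (from 4862 without replicate 1) and from 5726 to 7564 CPM in WT. The mesenchymal markers ran from 1564 to 5730 CPM in ALAS12-KO (from 3516 without replicate 1) and from 4165 to 6971 CPM in WT. The endothelial markers ran from 10959 to 36485 CPM in ALAS12-KO (from 25490 without replicate 1) and from 35562 to 52472 CPM in WT, and the red cell markers from 7.21 to 17.7 CPM in ALAS12-KO (from 11.6 without replicate 1) and from 17.0 to 22.8 CPM in WT. Without replicate 1 the median log2 fold change was −0.20 in place of −0.36 for the leukocyte, −0.30 in place of −0.48 for the mesenchymal and −0.36 in place of −0.56 for the endothelial markers.

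The hepatocyte markers summed to 606752 to 693313 CPM in ALAS12-KO and 633861 to 661952 CPM in WT. Their log2 fold change was positive for 7 of 7 with TMM and for 6 of 7 on library totals, where miR-122-5p was at −0.005. ALAS12-KO replicate 1 was the highest of the 7 libraries in the hepatocyte sum. It was the lowest in the other 6 sums and also in miR-34b-5p and miR-34c-5p. The part of other cells in the levels of the miR-34 arms was not tested. Fewer cells of a type and less RNA per cell cannot be told apart in bulk libraries.

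The miRNAs most like miR-34a-5p were sought by the root mean square distance between log2 CPM profiles over the 7 libraries, each centred on its own mean, among 221 tested miRNAs with a mean of at least 10 CPM. The 5 nearest were miR-30e-3p at a distance of 0.25, miR-203-3p at 0.28, miR-30e-5p at 0.31, miR-96-5p at 0.32 and miR-21a-5p at 0.34, where the median of all 221 was 0.56. A flat profile, the same in every library, would lie at 0.48, so even these 5 are like miR-34a-5p only in part. All 5 were above WT without overlap, as were 5.33% of all tested miRNAs. They were picked for nearness to a profile that is itself above WT without overlap, so this is no separate result. The 2 miR-30e arms share a hairpin. The points share their libraries and depth, and the distance is a description.

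miR-203-3p, known from skin and other epithelia, had 1970 ± 104 CPM (SD, n = 4) in ALAS12-KO and 1462 ± 43.5 CPM (SD, n = 3) in WT. miR-30e-3p had 166 ± 6.85 CPM (SD, n = 4) in ALAS12-KO and 115 ± 3.31 CPM (SD, n = 3) in WT. Both differed less than miR-34a-5p, with log2 fold changes of 0.63 ± 0.17 and 0.72 ± 0.18 (SE). miR-21a-5p, an abundant miRNA of injured tissue, had another order within ALAS12-KO. Its lowest ALAS12-KO library was at 42056 CPM, close to the highest WT library at 41968 CPM, while the lowest ALAS12-KO library of miR-34a-5p was at 2133 CPM and its highest WT library at 1444 CPM.

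**Figure D5:**
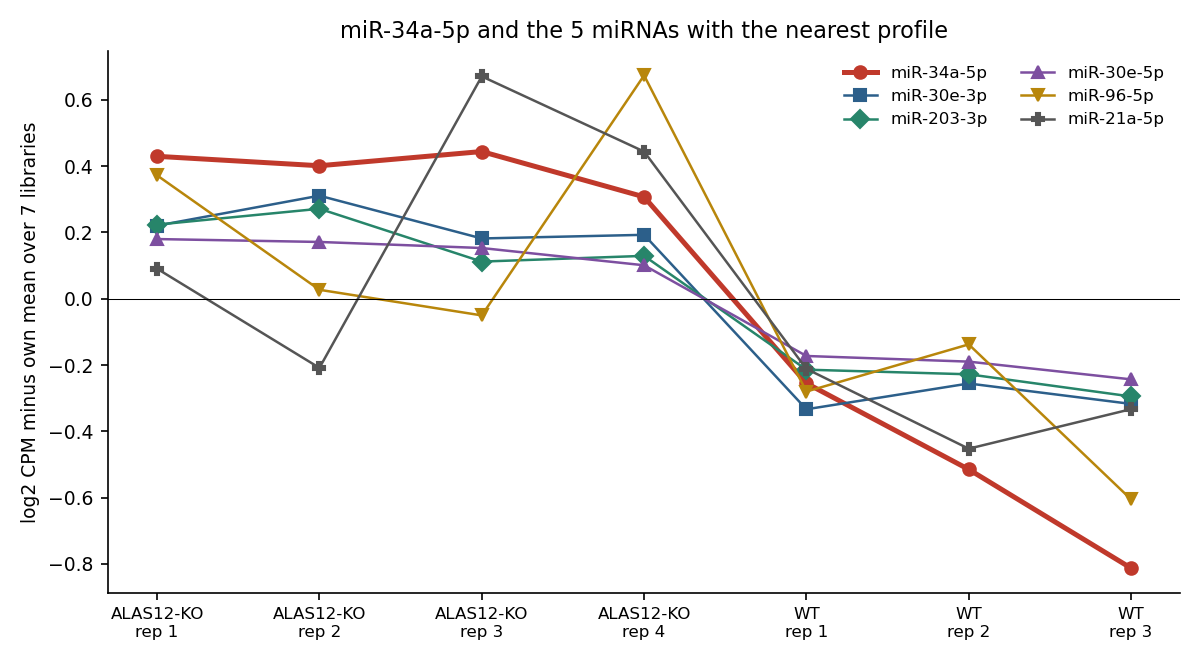
Log2 CPM of miR-34a-5p (thick red line) and the 5 miRNAs with the nearest profile, each minus its own mean, in the 4 ALAS12-KO and 3 WT libraries; lines only join the points of 1 miRNA. miR-34a-5p runs from 0.31 to 0.44 in ALAS12-KO and from −0.81 to −0.25 in WT, a wider gap than for the 5 others.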

How the data were processed

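For each of the 7 small RNA libraries, the authors deposited whole-number counts of reads per mature miRNA, not normalised, as read from the values. No source used here names their aligner, counter or miRNA annotation. The submitters' processing notes list cutadapt, limma, mm10 and hg38 without a role. Library sizes and CPM used the miRNA counts alone, without 5 summary lines. Reads outside miRNAs were 50.9% to 73.7% and reads not aligned 4.54% to 8.00% of each table. 1 CPM was 7.72 to 22.0 reads.

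edgeR 4.0.16 in R 4.3.3 (robust quasi-likelihood test, TMM, filterByExpr with a minimum count of 10) was fitted to all libraries and tested on simulated data. P-values were adjusted by Benjamini-Hochberg over all tested miRNAs. The alternatives were DESeq2 1.42.0, limma-voom (limma 3.58.1), other scalings and filters, the replicate number as a block, and each library left out in turn. No library was a copy of another of its group: chi-square over degrees of freedom was 97.4 to 1104 for each pair. Whether replicates are separate mice is not stated, so p-values measure the spread between these libraries.

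The members, lists and tests were chosen with earlier results of these data known. Named were the 6 arms, up to 4 of the most abundant tested miRNAs of each list, and the 5 nearest profiles; any other miRNA was named after its values were seen. Levels are relative to all miRNAs, since spiked-in RNAs are not used here. Sequences are from RefSeq (GRCm38.p6) and positions from RefSeq and GENCODE M21, read with Python 3.11.15.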

Additional observations from a re-analysis of the deposited data

Results flagged for a closer look

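Dixon's test at the 95% level was run on 8 measures of the family in the 4 ALAS12-KO libraries and singled out 1, miR-34b-3p. The rate by chance of about 1 in 20 holds for normally spread values, not for counts tied at 0. Replicate 3 held 2 reads and the other 3 libraries 0. The gap between the highest library and the next therefore filled the whole range, a ratio of 1.0 that such ties fix in advance. Both 2 and 0 reads are under the limit of 3 reads that a count of 0 allows.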

How the results depend on the processing

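The count of miRNAs called by edgeR was 0 of 450 and became 2 with library totals, 13 of 1302 without the filter on low counts and 21 with DESeq2. miR-34a-5p was among the called miRNAs in these 3 settings, and miR-34a-3p with DESeq2 as well. Leaving out each library gave 0 to 1 calls; the 1 call, without ALAS12-KO replicate 2, was no miR-34 arm. The cause of these changes was not tested. No arm changed its direction in any setting in which it was fitted. The log2 fold change of miR-34a-5p ran from 0.91 to 1.17 over 8 other scalings, filters, tools and the block, and from 0.92 to 1.23 over 7 left-out libraries. For miR-34a-3p the range over left-out libraries was 1.31 to 1.70, for miR-34c-5p −0.41 to −0.18, and for miR-34b-5p, which passed the filter in 4 of those 7, −0.59 to −0.34. The difference in log2 arm ratio, 0.34, was 0.06 with 5 reads added to each arm and 0.13 to 0.51 over left-out libraries. The share of miR-34b and miR-34c, 0.19 percentage points lower in ALAS12-KO, was lower in all 7 as well, but it moves with miR-34a-5p.

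With the replicate number as a block, edgeR called 0 miRNAs and the log2 fold change of miR-34a-5p was 1.17 ± 0.13 (SE). Deviations of same-numbered libraries correlated across miRNAs at −0.02, −0.42 and −0.02 for numbers 1 to 3. Those of differently numbered libraries correlated at −0.34 to 0.48. The deviations were taken from the mean of each genotype, which ties them to each other. These values therefore cannot tell whether same-numbered libraries share more than a number. For miR-34b and for the 3p arms other than miR-34a, depth sets the limit, at 0 to 13 reads a library.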
